A study of Mus musculus with 4 samples.

Results

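The 10 genes described here form the core of the mammalian circadian clock and its direct output, and were taken by symbol from the 31053 genes in the count tables: Arntl, Clock, Per2, Per3, Cry1, Cry2, Nr1d1, Nr1d2, Rorb and Dbp. All 10 were found. They were measured by single-nucleus RNA sequencing (10x Genomics 3′ chemistry) of punches of the arcuate nucleus (ARC), the part of the hypothalamus that controls appetite, metabolism and pituitary hormones. All mice were wildtype C57BL/6J males, 10 weeks old. DOCA-salt mice carried a pellet of deoxycorticosterone acetate, a mineralocorticoid, under the skin for 3 weeks and could drink saline beside water, and Sham mice had the surgery without a pellet. Each group had 2 libraries, and each library was a pool of nuclei from 2 mice, so the pool is the replicate and differences between the mice of a pool are not seen. The time of day at which the brains were taken is not given in the sources used here.

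The clock is a feedback loop of transcription. ARNTL (also called BMAL1) and CLOCK bind together to E-box elements and switch on the Per and Cry genes, whose proteins later shut ARNTL and CLOCK down. A second loop runs through Nr1d1 and Nr1d2 (REV-ERB alpha and beta), which repress Arntl, and the ROR proteins, which activate it. Dbp, an output gene that is switched on directly through E-boxes, and Nr1d1 peak in a part of the day opposite to Arntl. The suprachiasmatic nucleus, another part of the hypothalamus, holds the animal's central pacemaker.

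The 4 libraries held 2203 to 18907 nuclei after filtering, with 21255137 to 69382757 unique molecular identifiers (UMIs, 1 per captured RNA molecule). Sham 1 stood apart with the fewest nuclei and a median of 8215 UMIs per nucleus, against 2401 to 3278 in the other libraries. Filtering removed 21.5% of the barcodes of Sham 1, against 4.25% to 6.80% elsewhere. It cut the UMIs of Sham 1 from 53257230 to 21255137, with 599 nuclei removed by the upper limits on genes and UMIs. DOCA-salt 2 stood apart in its tissue, since the lateral hypothalamic genes Pmch and Hcrt summed to 3653 UMIs per 1000000 UMIs (CPM) there and to 31.0 to 57.0 CPM elsewhere, and Agrp and Npy to 16.0 CPM against 178 to 447 CPM. DOCA-salt 1 stood apart in its tissue too. Striatal-type markers (Drd1, Adora2a, Rgs9 and others) summed to 604 CPM there and to 156 to 209 CPM elsewhere. Oligodendrocyte markers summed to 169 CPM in DOCA-salt 1 and to 494 to 633 CPM elsewhere. Depth and the RNA Bc1 split by treatment. Median UMIs per nucleus were 2401 in DOCA-salt 1 and 2534 in DOCA-salt 2, against 8215 in Sham 1 and 3278 in Sham 2. Bc1 was at 208, 313, 2219 and 3135 CPM in that order. In comparisons of DOCA-salt with Sham these differences cannot be told apart from the treatment. Pairs of libraries shared 5 to 49 cell barcodes. Nuclei were sorted into classes by marker genes that include no clock gene, and 7 classes had at least 20 nuclei in every library: astrocytes, oligodendrocytes, oligodendrocyte precursors, microglia, endothelial cells, GABAergic neurons and glutamatergic neurons. They held 19528 of 39176 nuclei, and UMIs were summed over each class in each library. The neuronal marker list reached 38.5% to 79.1% of its GABAergic level in the glial and endothelial classes. Whether this was free RNA, doublets or mixed nuclei was not tested, and the classes of 1 library are not independent measurements.

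A promoter window, from 250 bases before to 50 bases after the gene start, was held by the RefSeq table (GRCm38.p6) for 9 of the 10 genes, all but Per2. They were searched on both strands for CACGTG, the canonical E-box, for CACGTT, a noncanonical E-box, for TTATGTAA or TTACGTAA, the D-box bound by DBP, and for AGGTCA, the core of the element bound by REV-ERB and ROR proteins. The 5 windows with a match are printed below with the matches in capitals, each 5′ to 3′ on the gene's strand, because they show in which members these letters occur. They lie at chr4:151044616-151044915 for Per3, chr10:85185005-85185304 for Cry1, chr2:92434020-92434319 for Cry2, chr11:98775328-98775627 for Nr1d1 and chr14:18239057-18239356 for Nr1d2, all on the minus strand.
Per3: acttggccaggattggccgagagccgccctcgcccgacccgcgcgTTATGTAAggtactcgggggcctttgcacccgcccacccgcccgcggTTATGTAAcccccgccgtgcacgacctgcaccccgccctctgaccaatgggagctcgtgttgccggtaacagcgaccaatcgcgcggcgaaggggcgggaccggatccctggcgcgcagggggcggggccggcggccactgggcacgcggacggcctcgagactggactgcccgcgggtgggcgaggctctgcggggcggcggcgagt
Cry1: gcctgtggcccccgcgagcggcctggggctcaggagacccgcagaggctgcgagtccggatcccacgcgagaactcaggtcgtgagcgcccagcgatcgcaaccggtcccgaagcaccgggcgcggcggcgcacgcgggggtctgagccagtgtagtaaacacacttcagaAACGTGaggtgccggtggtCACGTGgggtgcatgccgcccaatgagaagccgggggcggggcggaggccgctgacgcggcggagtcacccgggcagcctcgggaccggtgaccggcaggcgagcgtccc
Cry2: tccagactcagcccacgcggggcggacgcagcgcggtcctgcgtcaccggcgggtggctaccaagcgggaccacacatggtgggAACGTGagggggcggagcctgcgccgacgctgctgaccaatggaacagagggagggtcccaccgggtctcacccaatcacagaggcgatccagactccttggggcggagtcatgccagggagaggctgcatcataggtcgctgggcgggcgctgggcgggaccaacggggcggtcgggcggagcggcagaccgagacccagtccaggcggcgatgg
Nr1d1: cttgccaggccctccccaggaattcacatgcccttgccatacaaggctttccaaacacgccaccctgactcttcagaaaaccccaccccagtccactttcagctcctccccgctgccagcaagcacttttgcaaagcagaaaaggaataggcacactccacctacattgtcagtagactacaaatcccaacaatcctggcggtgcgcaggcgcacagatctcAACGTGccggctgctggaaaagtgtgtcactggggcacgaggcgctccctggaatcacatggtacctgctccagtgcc
Nr1d2: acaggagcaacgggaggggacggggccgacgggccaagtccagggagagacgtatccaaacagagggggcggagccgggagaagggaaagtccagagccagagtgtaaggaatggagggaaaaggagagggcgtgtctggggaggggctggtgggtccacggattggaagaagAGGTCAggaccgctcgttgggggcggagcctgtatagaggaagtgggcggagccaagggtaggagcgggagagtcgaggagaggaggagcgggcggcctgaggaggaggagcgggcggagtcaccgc
Per3 held 2 D-boxes, Cry1 a canonical and a noncanonical E-box, Cry2 and Nr1d1 a noncanonical E-box each, and Nr1d2 the AGGTCA core. Over all 32851 windows of the table the canonical E-box was found in 7.15%, the noncanonical E-box in 4.68%, the D-box in 1.06% and AGGTCA in 16.3%. The windows of Arntl, Clock, Rorb and Dbp held none of these letters, which speaks of these 300 bases only. RefSeq gave 2 windows for Arntl, 3 for Clock and 2 for Rorb. For each gene only the window nearest the annotated gene start was searched.

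The astrocyte class held the highest mean level over the 4 pools for 8 of the 10 clock genes, all but Clock and Cry1. Per3, Nr1d1, Rorb, Dbp, Per2, Cry2, Arntl and Nr1d2 were higher in astrocytes than in the mean of the other 6 classes, within pools, at a Benjamini-Hochberg false discovery rate (FDR, the adjusted p) under 0.05 in edgeR's quasi-likelihood test. That is 8 of 10 members, where 17.9% of the 11786 genes tested were higher and 16.6% lower in astrocytes, and the members' median log2 fold change was 1.14. The fit counts 28 class-by-library sums of 4 pools as separate values, with 18 residual degrees of freedom. As classes of 1 pool are not independent, the small FDRs of class differences speak of these 4 pools only. For 4 members (Per3, Nr1d1, Rorb and Dbp) the lowest astrocyte library lay above all 24 sums of the other classes, as was so for 3.54% of all genes with a mean of at least 10 CPM. Astrocytes here were nuclei led by Aqp4, Gja1, Ntsr2 and the other 7 genes of the list, which summed to a mean of 8999 CPM in the class. Tanycyte markers, which mark a neighbouring glial cell of the third ventricle, summed to 10.0 to 65.9 CPM in astrocytes and to 803 to 2242 CPM in nuclei that passed the tanycyte gate.

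**Figure D1:**
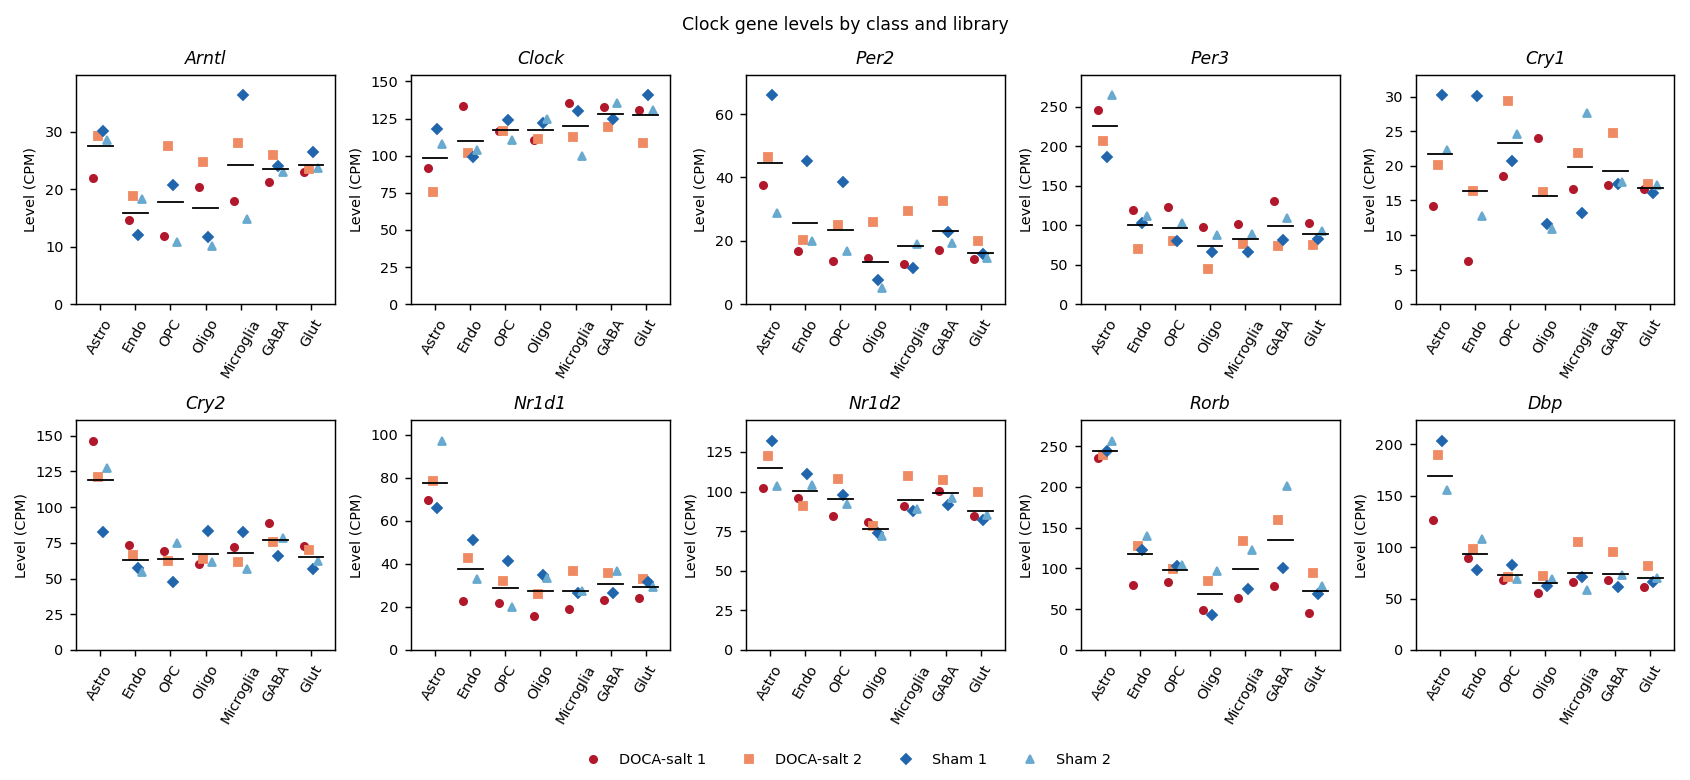
Level of each clock gene in CPM of all UMIs of a class (y axis, linear, from 0) in 7 classes (x axis), with 1 point per library and the mean of the 4 libraries as a line. Astrocytes (Astro) carry the highest mean for 8 of the 10 genes, and Per3, Nr1d1, Rorb and Dbp stand clear of every other class.

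Arntl (ENSMUSG00000055116, GRCm38 chr7:113207465-113314126, plus strand) encodes the activator whose RNA rises and falls. Its astrocyte levels were 22.0 CPM in DOCA-salt 1, 29.2 CPM in DOCA-salt 2, 30.2 CPM in Sham 1 and 28.6 CPM in Sham 2. It exceeded the mean of the other classes by 0.55 on the log2 scale (SE 0.19, edgeR FDR 0.026). The step to the next class, microglia, did not pass the test (edgeR FDR 0.30). The astrocyte call for Arntl was lost without DOCA-salt 1 (FDR 0.053), without Sham 1 (0.057) and without Sham 2 (0.11).

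Clock (ENSMUSG00000029238, chr5:76209868-76304792, minus strand) encodes ARNTL's partner, whose RNA changes little over the day in most tissues. It ran against the other members, with its lowest mean in astrocytes (98.4 CPM ± 18.6, SD, n = 4) and its highest in GABAergic neurons (128 CPM ± 7.60). The astrocyte difference of -0.20 (SE 0.095) did not pass the test (FDR 0.10), and no class differed from the others at this threshold.

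Per3 (ENSMUSG00000028957, chr4:151003652-151044665, minus strand), a Period gene that is dispensable for rhythm in mice, gave one of the largest class differences. It stood at 246 CPM in DOCA-salt 1, 206 CPM in DOCA-salt 2, 187 CPM in Sham 1 and 264 CPM in Sham 2 in astrocytes. Every other class lay between 44.8 and 130 CPM in every library, so no value overlapped. The difference was 1.501 on the log2 scale (SE 0.082, FDR 8.8e-19). Per3 lies wholly inside the annotated span of Camta1 on the same strand, and how reads common to both were counted is not given in the sources used here; Camta1 itself was lower in astrocytes (log2 fold change -0.37, SE 0.059, FDR 2.4e-06).

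Per2 (ENSMUSG00000055866, chr1:91415982-91459324, minus strand), the Period gene needed for stable rhythms, was scarcer. In astrocytes it was at 37.5 CPM in DOCA-salt 1 (29 UMIs), 46.5 CPM in DOCA-salt 2 (51 UMIs), 65.9 CPM in Sham 1 (24 UMIs) and 28.6 CPM in Sham 2 (18 UMIs). Sham 1 was the highest of the 4 and Sham 2 the lowest, so the 2 Sham pools enclosed both DOCA-salt pools. The log2 difference from the other classes was 1.26 (SE 0.20, FDR 2.5e-06), although the lowest astrocyte library lay below endothelial cells of Sham 1 at 45.1 CPM.

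Cry2 (ENSMUSG00000068742, chr2:92403646-92434043, minus strand) and Cry1 (ENSMUSG00000020038, chr10:85131700-85185064, minus strand) encode the cryptochromes that block ARNTL and CLOCK. They parted company across classes. Cry2 reached 146 CPM in DOCA-salt 1, 121 CPM in DOCA-salt 2, 82.4 CPM in Sham 1 and 127 CPM in Sham 2 in astrocytes. Sham 1 fell within the range of the other classes, which reached 88.6 CPM, and the other 3 pools lay above it. The log2 difference was 1.01 (SE 0.10, FDR 1.2e-10). Cry1 was highest in oligodendrocyte precursors, at 23.3 CPM ± 4.73 (SD, n = 4), followed by astrocytes at 21.7 CPM ± 6.61. No step between neighbours in the order of Cry1 levels passed the test, and no class was called against the mean of the others.

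Nr1d1 (ENSMUSG00000020889, chr11:98767932-98775333, minus strand) showed the largest astrocyte difference of the 10, 1.54 on the log2 scale (SE 0.13, FDR 1.4e-12). Its astrocyte levels were 69.8 CPM in DOCA-salt 1, 78.4 CPM in DOCA-salt 2, 65.9 CPM in Sham 1 and 97.1 CPM in Sham 2, against 15.7 to 51.1 CPM over all other classes and libraries. Nr1d2 (ENSMUSG00000021775, chr14:18204054-18239127, minus strand), its close relative, differed by 0.44 (SE 0.082, FDR 3.5e-05). Its astrocyte levels ran from 102 CPM in DOCA-salt 1 to 132 CPM in Sham 1 and overlapped those of other classes. Nr1d1 overlaps the 3′ part of Thra, and Dbp overlaps Sphk2, both on the opposite strand. Cry2 overlaps D930015M05Rik and Arntl overlaps Gm45355, also on the opposite strand. Clock overlaps Gm43658 (4176 bases) and Ube2n-ps1 (459 bases) on the same strand.

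Rorb (ENSMUSG00000036192, chr19:18930605-19111196, minus strand) encodes an activator of the ROR family found in the central pacemaker and in sensory circuits. In astrocytes it held nearly 1 level in all pools: 235 CPM in DOCA-salt 1, 240 CPM in DOCA-salt 2, 244 CPM in Sham 1 and 256 CPM in Sham 2. In GABAergic neurons it ranged from 78.8 CPM in DOCA-salt 1 to 201 CPM in Sham 2. The astrocyte difference was 1.51 (SE 0.12, FDR 5.4e-14), and Rorb was the sole member also called higher in GABAergic neurons (0.26, SE 0.086, FDR 0.015), where 17.9% of genes were called higher.

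Dbp (ENSMUSG00000059824, chr7:45705088-45710203, plus strand) encodes the D-box activator used as a readout of ARNTL and CLOCK activity. It stood at 127 CPM in DOCA-salt 1, 190 CPM in DOCA-salt 2, 203 CPM in Sham 1 and 156 CPM in Sham 2 in astrocytes, above 55.4 to 108 CPM in all other classes. The log2 difference was 1.28 (SE 0.097, FDR 2.1e-14).

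Apart from astrocytes, no class stood clear of the next in level. When the 7 classes were ranked by mean level for each gene, 7 of 60 steps between neighbours passed the test, and all 7 were the step from astrocytes to the next class (Per2, Per3, Cry2, Nr1d1, Nr1d2, Rorb and Dbp). Neighbours in such a ranking are close by construction, and mean Rorb still fell from 135 CPM in GABAergic neurons to 68.5 CPM in oligodendrocytes. The neuronal marker list was at 38.5% to 41.7% of its GABAergic level in astrocytes. It was at 40.6% to 79.1% in the other glial and endothelial classes, and its part in these levels was not tested. Glutamatergic neurons were lower than the mean of the other classes, which includes astrocytes, for 7 of 10 members, where 23.9% of genes were called lower. The largest of these differences were in Rorb (-0.77, SE 0.096) and Per2 (-0.54, SE 0.14). Oligodendrocytes were lower for Rorb, Per3, Dbp and Nr1d2 (4 of 10, background 11.9%), oligodendrocyte precursors for Dbp (background 6.22%), microglia for Per3 (background 3.38%) and GABAergic neurons for Nr1d1 and Dbp (background 19.7%). The mean of the others includes astrocytes in these contrasts too. By mean level GABAergic neurons ranked 3 of 7 for Nr1d1 and 4 of 7 for Dbp. In endothelial cells edgeR called no member higher or lower (backgrounds 6.33% and 1.93%). No member was called higher in glutamatergic neurons, oligodendrocytes, oligodendrocyte precursors or microglia, where 21.5%, 14.6%, 7.81% and 4.86% of genes were.

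**Figure D2:**
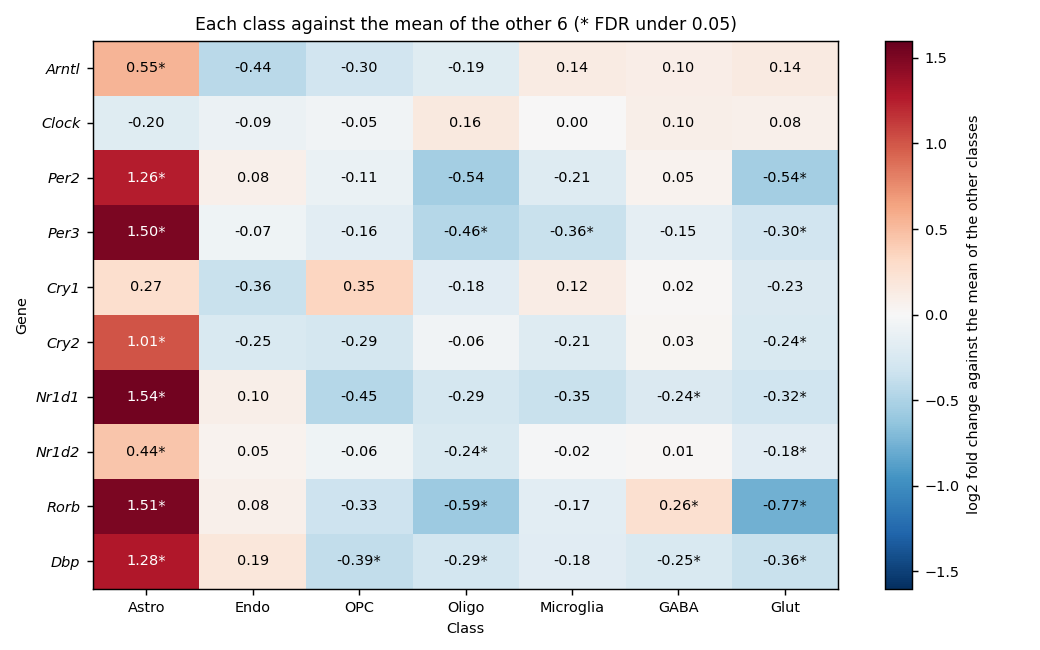
Fitted log2 fold change of each class (x axis) against the mean of the other 6 for each clock gene (y axis), as a colour scale and a printed value, with a star for FDR under 0.05. The astrocyte column runs from -0.20 for Clock to 1.54 for Nr1d1, and 8 of its 10 cells carry a star.

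The wider clock list of 18 genes leaned the same way. Of its 13 genes with enough counts, 9 were higher in astrocytes, where 17.9% of all genes were, and 1, the casein kinase gene Csnk1e, was lower (-0.50, SE 0.087), where 16.6% were. Usp2, a deubiquitinase gene under clock control, was the highest (1.98, SE 0.13), followed by the E-box repressor gene Bhlhe40 (1.26, SE 0.16), Rora (1.05, SE 0.13) and Hlf (0.92, SE 0.099), a relative of Dbp. The difference for Per1 was 0.43 (SE 0.13, FDR 0.0070).

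The genes whose levels over the 28 class-by-library sums followed each member most closely, after library means were removed, were largely outside the clock. Among 8415 genes with a mean of at least 20 CPM, Per3 went with Farp1 (Pearson r = 0.94) and Lrrc8a (0.94), Dbp with Usp53 (0.93) and Dtna (0.93), Nr1d1 with Sorcs2 (0.91) and Entpd2 (0.91), and Rorb with Msi2 (0.91) and Id4 (0.89). Per2 and Nr1d2 were the sole pair of members that named each other (r = 0.84), Per2 with Cs next (0.82) and Nr1d2 with Lpp (0.81). Over all pairs of members r ran from -0.58 (Per3 with Clock) to 0.89 (Per3 with Dbp), so members could be close without naming each other. Cry1, with a mean of 19.0 CPM, was below the cut and could not be named. Cry2 went with Wwc1 (0.85) and Ivd (0.84), Clock with Tfdp1 (0.80) and Plppr2 (0.78), Arntl with Cabin1 (0.78) and L3mbtl3 (0.78), and Cry1 with Rnf41 (0.77) and Zfp871 (0.73). Sums of 1 library share depth and any RNA carried between nuclei, and sums of 1 class share a gate, so these coefficients are descriptions.

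Neurons that passed a gate for suprachiasmatic markers (Vip, Nms, Lhx1, Six6 and others) were few, 6 from DOCA-salt 1, 108 from DOCA-salt 2, 17 from Sham 1 and 35 from Sham 2, and were not tested. Rorb in them was at 60.05 CPM in DOCA-salt 1, 627 CPM in DOCA-salt 2, 194 CPM in Sham 1 and 575 CPM in Sham 2. The DOCA-salt 1 value rests on 3 UMIs, with a 95% exact Poisson interval of 12.4 to 175 CPM that covers counting error only. Per2 was at 20.02, 89.9, 48.6 and 73.2 CPM in the same order. These neurons were 0.058%, 0.57%, 0.77% and 0.45% of the nuclei of those pools.

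Whether DOCA-salt moved the clock was asked next, first in whole libraries and then class by class. No clock gene was called in whole libraries by edgeR (0 of 10 at FDR under 0.05 and 0 of 10 at an unadjusted p under 0.05), where 0% of 16564 genes were called and 8.45% had an unadjusted p under 0.05. DESeq2 also called 0 of the 10, where it called 0.45% of 23097 genes. In whole libraries a change within a class and a change in the share of classes cannot be told apart.

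Per2 in all nuclei was at 17.6 CPM in DOCA-salt 1, 28.1 CPM in DOCA-salt 2, 21.4 CPM in Sham 1 and 18.4 CPM in Sham 2, and Per3 at 128, 75.3, 84.1 and 102 CPM in that order. In both genes the DOCA-salt pools lay on either side of both Sham pools. Arntl lay between 21.4 and 25.2 CPM and Clock between 110 and 129 CPM. The groups did not overlap for Cry2, Nr1d2 and Dbp, as was so for 43% of all genes.

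The fitted log2 fold changes of DOCA-salt over Sham ran from -0.25 for Rorb (SE 0.38) to 0.25 for Cry2 (SE 0.15, FDR 0.68, edgeR). Leaving out DOCA-salt 1 turned the sign for Per3 (to -0.31), Nr1d1 (0.054) and Rorb (0.19), and leaving out DOCA-salt 2 turned it for Per2 (-0.26), Cry1 (-0.15), Arntl (-0.064) and Dbp (-0.0039). The sign also turned for Per3 without Sham 1 (-0.046) and for Rorb without Sham 2 (0.087). Clock, Cry2 and Nr1d2 were the 3 members whose sign held whichever pool was left out.

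By class, 98 tests could be made over the 10 members in 10 classes and neuron subtypes, since Arntl and Cry1 were too low in endothelial cells. The subtypes were neurons with Agrp or Npy, which drive feeding, neurons with Tac2, and neurons with Nr5a1 or Fezf1, which mark the ventromedial nucleus. None of the 98 passed an FDR of 0.05 in edgeR, and 2 had an unadjusted p under 0.05. DESeq2 called 0 of the 62 class tests for which it gave an adjusted p, and it gave no adjusted p for those 2. In no class, oligodendrocytes included, did DESeq2 give a member an unadjusted p under 0.05. Of all genes, edgeR called 0% to 0.137% in these fits and DESeq2 0.00583% to 0.177%. The DESeq2 share is over all genes with an unadjusted p, a wider base than that of the members. In oligodendrocyte precursors, endothelial cells and Nr5a1 or Fezf1 neurons no member had an adjusted p, so none could be called by DESeq2. Both low p-values were in oligodendrocytes, where 10.3% of genes had a p under 0.05 and the groups did not overlap for 43.2%, against 6 of the 10 members.

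Per2 in oligodendrocytes was at 14.4 CPM in DOCA-salt 1 (12 UMIs), 26.0 CPM in DOCA-salt 2 (40 UMIs), 7.75 CPM in Sham 1 (4 UMIs) and 5.02 CPM in Sham 2 (6 UMIs). Both DOCA-salt pools lay above both Sham pools, with a log2 fold change of 1.71 (SE 0.55, edgeR FDR 0.28). Without DOCA-salt 1 the FDR was 0.028, in a fit that called 3.21% of all genes. The 95% exact Poisson intervals of DOCA-salt 1 (7.47 to 25.2 CPM) and Sham 1 (2.11 to 19.9 CPM) overlapped.

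Arntl in oligodendrocytes showed 20.5 CPM in DOCA-salt 1, 24.7 CPM in DOCA-salt 2, 11.6 CPM in Sham 1 and 10.0 CPM in Sham 2, with no overlap (log2 fold change 0.995, SE 0.44, edgeR FDR 0.46). Nr1d1, which represses Arntl, lay the other way at 15.7, 26.0, 34.9 and 33.5 CPM in that order (-0.75, SE 0.36, FDR 0.49). In oligodendrocytes the neuronal marker list was at 58.2% to 63.0% of its GABAergic level in the DOCA-salt pools and at 40.6% to 47.8% in the Sham pools. The part of neuronal RNA in these differences was not tested. In glutamatergic neurons Rorb passed the test without DOCA-salt 2 (log2 fold change -0.78, FDR 0.036), in a fit that called 1.64% of all genes, where the values of DOCA-salt 1 (44.9 CPM), Sham 1 (69.2 CPM) and Sham 2 (78.9 CPM) remained, and DOCA-salt 2 itself was the highest at 94.2 CPM.

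In astrocytes 9 of the 10 members had a fitted difference below 0 (median -0.14), with 0.0314% of genes called, 7.98% at an unadjusted p under 0.05 and 38.4% without overlap. Clock, at 91.8 CPM in DOCA-salt 1, 75.7 CPM in DOCA-salt 2, 118 CPM in Sham 1 and 108 CPM in Sham 2, had the lowest FDR there (log2 fold change -0.46, SE 0.25, FDR 0.67). Its groups did not overlap, nor did those of Cry1 and Rorb, which is 3 of 10. Cry1 had the largest difference in astrocytes (-0.56, SE 0.43) on 11 to 22 UMIs a pool.

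In the other glial and vascular classes the members' groups seldom parted. They did not overlap for 1 of 10 members in oligodendrocyte precursors, where that was so for 38.3% of genes, 0.0317% were called and 7.94% had an unadjusted p under 0.05. In microglia it was 1 of 10 against 39.4% (0.0195% called, 7.68% at the unadjusted level), and Dbp showed 66.6 CPM in DOCA-salt 1, 105 CPM in DOCA-salt 2, 71.0 CPM in Sham 1 and 58.4 CPM in Sham 2, with the DOCA-salt pools on either side of Sham 1. In endothelial cells it was 2 of the 8 members tested against 38.2% (0.0113% called, 7.13% at the unadjusted level), and Per2 was highest in Sham 1 at 45.1 CPM and between 16.7 and 20.1 CPM in the other pools.

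In neurons the fitted differences were small where nuclei were many. GABAergic neurons ran from -0.35 for Rorb to 0.26 for Dbp, and 1 of 10 members did not overlap against 39.9% of genes (0% called, 6.26% at the unadjusted level). Glutamatergic neurons ran from -0.22 for Clock to 0.23 for Cry2, and 3 of 10 did not overlap against 44.1% (0% called, 9.06% at the unadjusted level). Cry2 there was at 72.7 CPM in DOCA-salt 1, 70.2 CPM in DOCA-salt 2, 56.3 CPM in Sham 1 and 62.4 CPM in Sham 2 (SE 0.15, FDR 0.61), so both DOCA-salt pools were the higher.

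The neuron subtypes had fewer nuclei. Neurons with Agrp or Npy numbered 49 in DOCA-salt 2, of which 6 passed the stricter gate, and both genes together ran from 846 to 5377 CPM in the class over the 4 pools, so the class may not hold the same cells in each. In Agrp or Npy neurons 2 of 10 members did not overlap against 32.6% (0% called, 2.43% at the unadjusted level), with Cry1 at 0.85 (SE 0.46) on 5 to 35 UMIs a pool. In Tac2 neurons it was 3 of 10 against 36.6% (0.00939% called, 5.15% at the unadjusted level). In Nr5a1 or Fezf1 neurons it was 4 of 10 against 42.3% (0.0797% called, 9.73% at the unadjusted level), where Arntl was at 22.7 CPM in DOCA-salt 1, 22.8 CPM in DOCA-salt 2, 35.9 CPM in Sham 1 and 29.4 CPM in Sham 2 (-0.52, SE 0.29, FDR 0.59). No non-overlap share of the members in these 9 fits was above that of all genes.

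**Figure D3:**
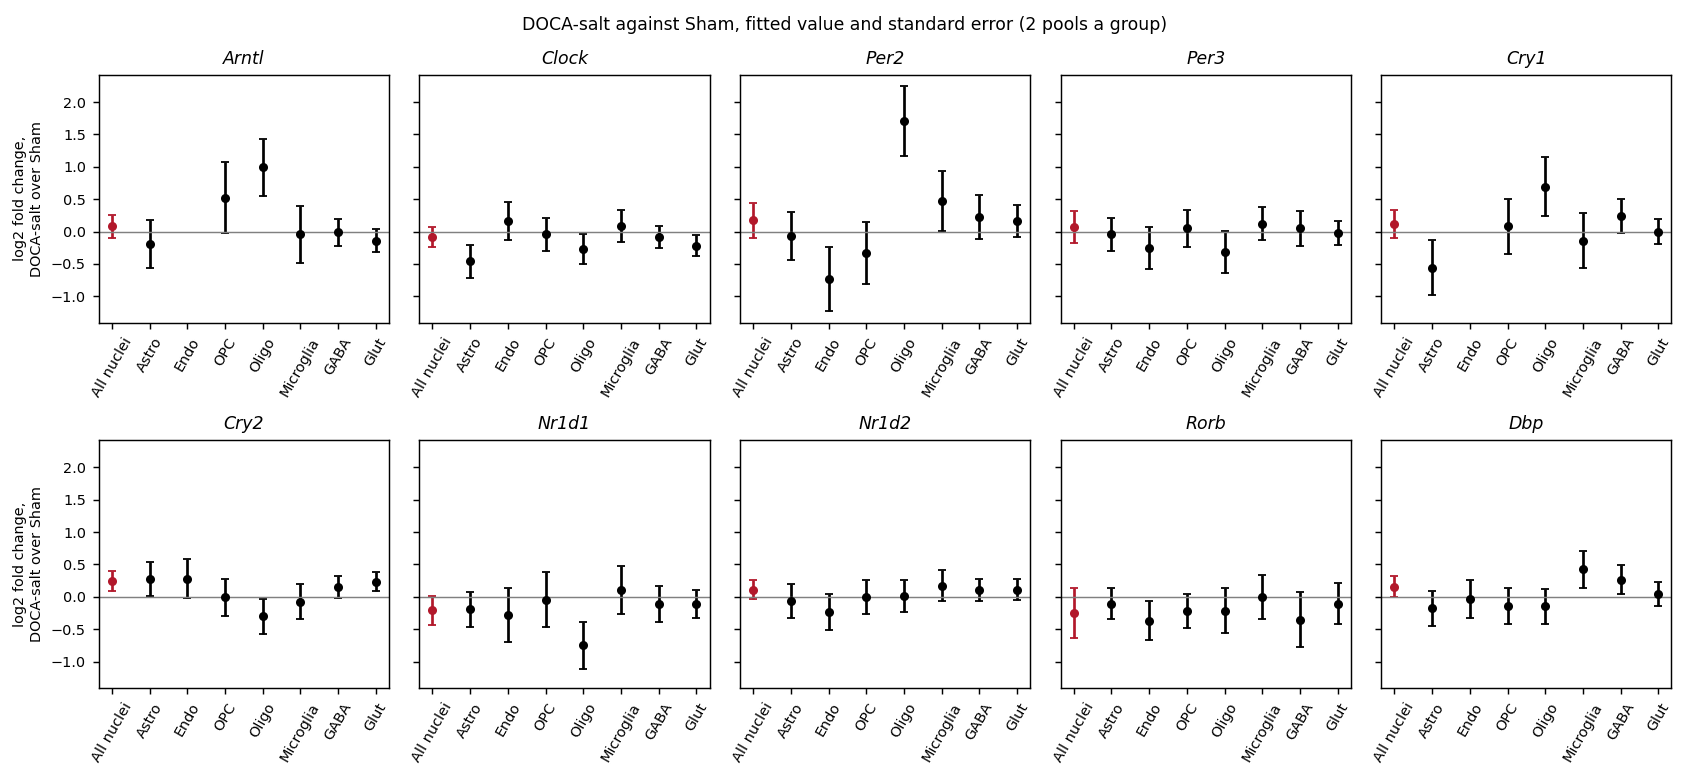
Fitted log2 fold change of DOCA-salt over Sham (y axis) with its standard error for each clock gene in all nuclei (red) and in 7 classes (black), from 2 pools a group. Per2 in oligodendrocytes, at 1.71, is the point farthest from 0, and no point passed an FDR of 0.05.

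The treatment difference was not shown to vary between classes. The treatment-by-class test called 0 of 10 members and 0% of 11786 genes in edgeR. At an unadjusted p under 0.05 there was 1 member, Per2 (FDR 0.998), where 4.62% of genes passed that level. DESeq2 was not run for this test.

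The 18 genes of the wider list gave 133 tests by class with none called by edgeR and 4 at an unadjusted p under 0.05, and DESeq2 called none of the 107 tests for which it gave an adjusted p. The 4 were Per1 and Usp2, each in 2 classes. Per1, the Period gene that responds fastest to stimuli, had an unadjusted p under that level in whole libraries (log2 fold change 0.37, SE 0.14, FDR 0.58), in microglia (0.86, SE 0.30, FDR 0.59) and in glutamatergic neurons (0.42, SE 0.17, FDR 0.54). Usp2 lay the other way in oligodendrocytes (-0.66, SE 0.30, FDR 0.48) and in glutamatergic neurons (-0.52, SE 0.21, FDR 0.54). Of genes that respond to glucocorticoids 0 of 63 tests were called and 3 had a p under 0.05, and of immediate early genes 0 of 43 and 5, where 2.43% to 10.3% of all genes had such a p by class. DESeq2 called 0 of the 42 and 0 of the 34 tests for which it gave an adjusted p.

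Whether the 4 libraries differed in clock gene levels over the classes was asked with a fit of library plus class over the 28 sums. The fit tests levels and not the phase of the clock. With 1 sum per class and library it cannot test whether libraries differ alike in all classes. The library terms passed an FDR of 0.05 for 8 of 10 members, all but Cry1 (FDR 0.078) and Cry2 (FDR 0.11), but they passed for 72.2% of all 11786 genes. Without DOCA-salt 1 they passed for 5 members and 63.6% of genes, and without DOCA-salt 2 for 3 members and 40.9%. The spread between the highest and lowest library was 0.22 to 0.93 on the log2 scale for the members, and its median over all genes was 0.46. Rorb (0.93), Per2 (0.79), Nr1d1 (0.60), Per3 (0.55) and Dbp (0.49) lay above that median and the other 5 members below it. The classes of 1 pool are not replicates, so this test speaks of these 4 libraries only.

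The 2 DOCA-salt pools differed from each other most regularly. Per2, Nr1d1, Dbp, Arntl and Rorb were higher in DOCA-salt 2 than in DOCA-salt 1 in all 7 classes, and Per3 was lower in all 7. That is 6 of 10 members with 1 sign in every class, where 31.9% of genes with a mean of at least 10 CPM had 1 sign throughout. Between the Sham pools 2 of 10 members (Per3 and Rorb, both higher in Sham 2) kept 1 sign, with a background of 10.7%. Between a DOCA-salt and a Sham pool the counts were 0 to 2 of 10, with Per3 higher in DOCA-salt 1 than in Sham 1 (background 21.3%), Rorb lower in DOCA-salt 1 than in Sham 2 (17.1%), none between DOCA-salt 2 and Sham 1 (30.1%), and Per2 higher and Per3 lower in DOCA-salt 2 than in Sham 2 (35.1%).

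In the median class, DOCA-salt 2 exceeded DOCA-salt 1 by 0.80 for Per2, 0.77 for Rorb, 0.59 for Nr1d1, 0.41 for Dbp and 0.35 for Arntl on the scale of log2(CPM + 1), and Per3 was lower by -0.62. Arntl thus lay on the same side as Per2, Nr1d1 and Dbp, and Per2 and Per3, which belong to 1 family, lay on opposite sides. DOCA-salt 2 is also the library with Pmch and Hcrt, and the part of its tissue in these differences was not tested.

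**Figure D4:**
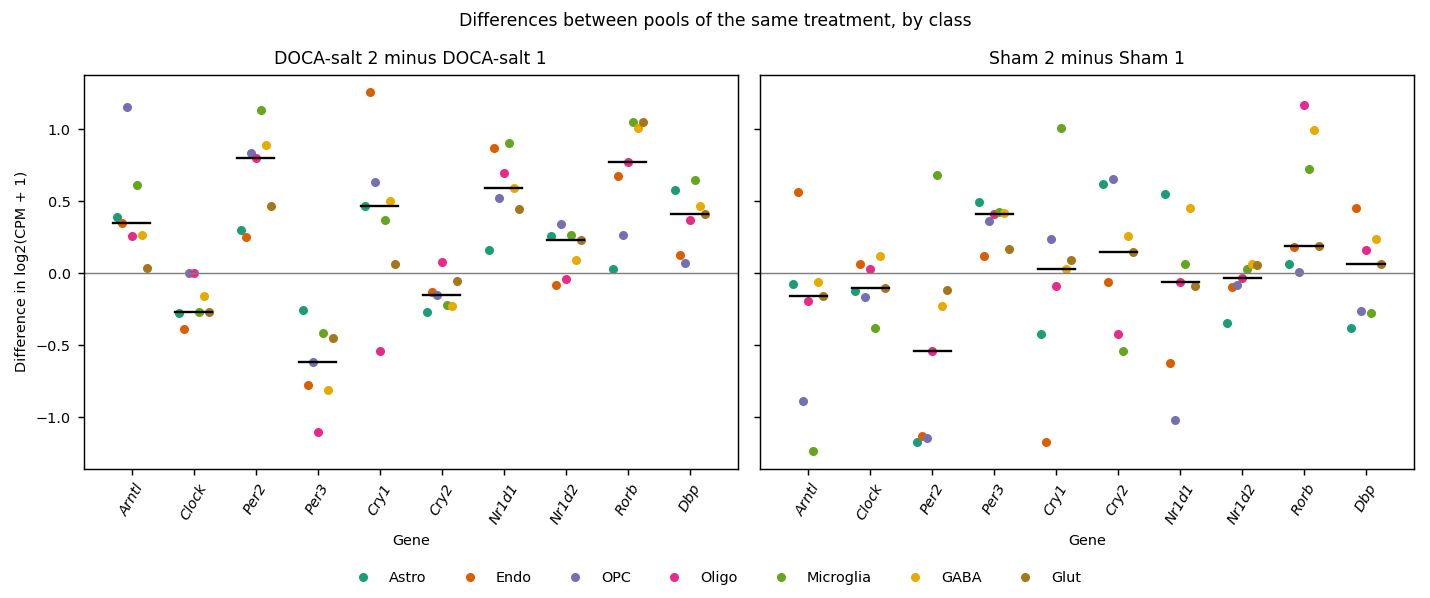
Difference in log2(CPM + 1) between the 2 pools of the same treatment (y axis) for each clock gene (x axis), with 1 point per class and the median as a line. On the left all 7 classes lie above 0 for Per2, Nr1d1, Dbp, Arntl and Rorb and below 0 for Per3, while on the right most genes straddle 0.

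A single number was taken as the mean log2(CPM + 1) of Dbp, Nr1d1, Nr1d2, Per2 and Per3 minus that of Arntl, which peaks at an opposite time, and Clock. As the RNA of Clock changes little over the day in most tissues, Arntl is the one gene of the subtracted pair that marks time. The number is a description with no test. Averaged over the 7 classes it was 0.12 in DOCA-salt 1 (SD 0.48 over classes), 0.23 in DOCA-salt 2 (SD 0.48), 0.15 in Sham 1 (SD 0.66) and 0.27 in Sham 2 (SD 0.36). DOCA-salt minus Sham was -0.036, where pools of a group had an SD of 0.082. It was -0.28 under a stricter marker gate, which left 18 astrocytes in Sham 1.

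By class the number was highest in astrocytes on average, from 0.88 in Sham 2 to 1.23 in DOCA-salt 2. Endothelial cells of Sham 1 (1.03) were the sole other value in that range. Dbp, Nr1d1, Nr1d2, Per2 and Per3 were each called higher in astrocytes, and the high number there follows from those levels. The number thus cannot compare clock time between classes. The number was lowest in glutamatergic neurons, from -0.38 in Sham 1 to 0.053 in DOCA-salt 2. The order of the 4 pools was the same in GABAergic and glutamatergic neurons (Sham 1, DOCA-salt 1, Sham 2, DOCA-salt 2 from low to high), but 6 different orders were seen over the 7 classes. In oligodendrocytes both DOCA-salt pools (-0.25 and -0.24) lay below both Sham pools (0.011 and 0.080). The same held in oligodendrocyte precursors (0.29 and -0.053 against 0.31 and 0.41) and in endothelial cells (0.23 and 0.33 against 1.03 and 0.46). In astrocytes both DOCA-salt pools lay above both Sham pools, and in microglia and both neuron classes the groups overlapped. Groups of 2 part easily, since an exact permutation test of 2 against 2 cannot go below p = 0.333. Arntl, which the number subtracts, was too low in endothelial cells for the treatment test.

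**Figure D5:**
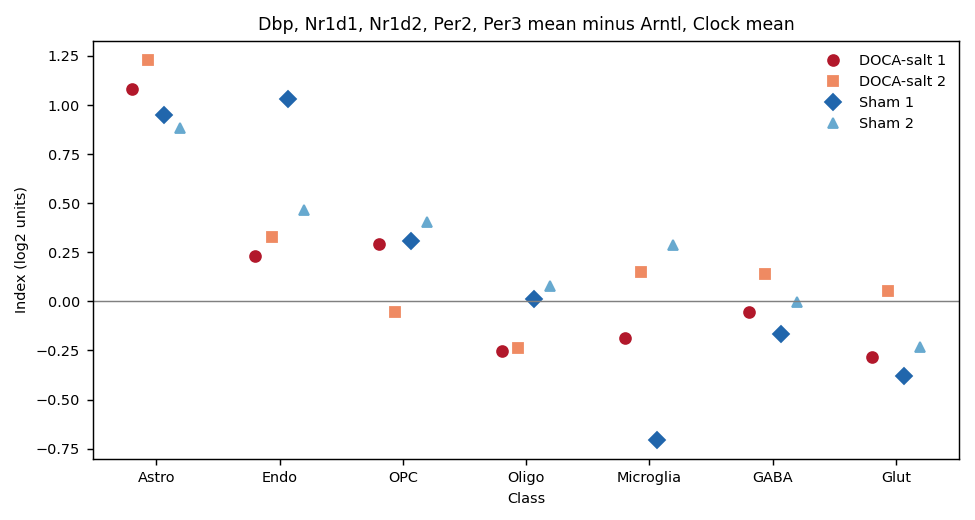
Mean log2(CPM + 1) of Dbp, Nr1d1, Nr1d2, Per2 and Per3 minus that of Arntl and Clock (y axis, log2 units) in 7 classes (x axis), with 1 point per library. Astrocytes lie at 0.88 to 1.23 in all 4 pools, and the order of the pools changes from class to class.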

How the data were processed

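Nuclei from ARC punches of 2 DOCA-salt and 2 Sham pools were sequenced with a 10x 3′ kit. The authors aligned reads to mm10 with Cell Ranger 3.0.1 (per the labels) and deposited UMI counts per gene and nucleus; the study's mapping summary gives a share of reads on the transcriptome just under the exonic share, with intronic reads listed apart, and no setting for intronic reads is stated. Groups came from the sample labels. Nuclei with 200 to 7000 genes, under 25000 UMIs and under 15% mitochondrial UMIs were kept, as in the study. A nucleus joined a glial or vascular class if at least 3 genes of 1 marker list were seen. That list had to reach 4 or more times the library's mean rate and 2 or more times every other glial or vascular list. Neurons needed 0.8 or more of the mean neuronal rate and 2 UMIs of Gad1, Gad2 and Slc32a1, or of Slc17a6 and Slc17a7, with a lead of 2 times over the other set; subtypes needed 5 UMIs of their peptide genes (2 for Nr5a1 and Fezf1) at 4 times the mean rate. The gate was set from marker UMIs and numbers of nuclei, after the files were opened. No doublet caller was run. Nuclei with 2 glial or vascular lists at like rates were left out. The neuronal lists were not set against these lists, so a nucleus mixed with neuronal RNA could stay in a glial or vascular class.

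Deposited counts were summed over each class in each library and tested with edgeR 4.0.16 (quasi-likelihood, TMM, filterByExpr, R 4.3.3), with Benjamini-Hochberg adjustment over all genes of a fit. DESeq2 1.42.0 and limma 3.58.1 were alternatives. CPM are per 1000000 UMIs of the class, and SE is the fold change over the root of F. The edgeR tests of treatment, class and library were run on simulated data, and the treatment-by-class test and the alternatives were not. A simulated 2-fold DOCA-salt change was recovered for 16% of changed genes in all nuclei, 23% in astrocytes and 31% in oligodendrocytes. A 4-fold change was recovered for 92% to 100%. Pools are separate samples of 2 mice each, and an exact permutation test of 2 against 2 cannot go below p = 0.333. Genes were named by a rule: the 10 members, calls in the wider list, and the 2 genes most like each member. The members and lists were chosen with earlier results of these data known. Gene positions are from GENCODE vM21 (GRCm38). Per2 had no entry among the promoter windows.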

Additional observations from a re-analysis of the deposited data

How the results depend on the processing

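With 2 pools a group and neuronal markers in every class, a difference within the DOCA-salt pools can hide one between groups. By class, the number of members called went from 0 to a range of 0 to 1 when a pool was left out (Per2 without DOCA-salt 1, Rorb without DOCA-salt 2), and in whole libraries, as in the treatment-by-class test, it stayed at 0 under every alternative run. The same-numbered pools deviated in opposite directions (r = -0.22). With 2 pools a group the crossed pairs must give the same value with the sign turned (0.22), so this cannot show what the numbers share. With a replicate block 0 members were called, while the genes called by class went from 33 to 275. A crossed replicate block, chosen after seeing the data, called 0 members and 488 genes by class, 58 in whole libraries. By class, genes called numbered 853 without the low-count filter, 131 in DESeq2, 72 with the stricter gate and 134 to 6914 when a pool was left out, and in whole libraries, where the gate plays no part, 142 without the filter, 104 in DESeq2, 3 in limma and 1 to 771, against 0. The treatment-by-class test called 102 genes without the filter, 6 with the stricter gate and 1 to 99 when a pool was left out, against 0.

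The library test called 5 of 10 members under the stricter gate (62.3% of all genes), and 3 to 8 when a pool was left out (5 and 63.6% of all genes without DOCA-salt 1, 3 and 40.9% without DOCA-salt 2). Higher in astrocytes were 7 to 8 members when a pool was left out, where 13.9% to 16.7% of all genes were. The number was 8 with RLE scaling (18.2% of all genes), no filter (9.94%), the stricter gate (17.7%) or no upper limits (18.2%). Under the stricter gate Clock passed as lower (-0.49, FDR 0.012). The difference between the 2 gene sets, DOCA-salt minus Sham, was -0.036 and -0.28 under the stricter gate; the cause was not tested.

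In whole libraries, signs turned for Per3 (-0.0053 without upper limits on nuclei), for Per2 (-0.012) and Cry1 (-0.075) with equal weight per class. Leaving out a pool gave ranges of -0.26 to 0.49 for Per2, -0.31 to 0.37 for Per3, -0.15 to 0.33 for Cry1, -0.064 to 0.20 for Arntl, -0.0039 to 0.29 for Dbp, -0.55 to 0.054 for Nr1d1 and -0.91 to 0.19 for Rorb. Each such fit has 1 pool in an arm, which is assumed to vary like the others.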
